A study of Mus musculus with 2 samples.

Results

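The 10 genes described here are transcripts used to tell apart the activation states of macrophages: Arg1, Arg2, Nos2, Acod1, Retnla, Mrc1, Chil3, Mgl2, Cd163 and Folr2. They were taken from the array annotation by name, where Acod1 is listed under its older name Irg1 and Chil3 as Chi3l3. They were covered by 12 probes in 21 spots, among 27576 gene names on the array. The genes were selected on their processed signals on these same arrays, so the differences given for them are descriptions and carry no test.

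Skin of 2 groups was compared, each on 1 single-colour Agilent array. Values from the FGF18 array are called FGF18 skin and those from the PBS array PBS skin. The FGF18 array held poly(A) RNA from dorsal skin of male C3H/HeN mice whose anagen (hair growth) had been started by depilation, and which received 1 µg of FGF18 protein under the skin on day 4. The PBS array held RNA from mice of the same strain, sex and depilation that received phosphate-buffered saline instead. Skin of full thickness was taken from both 24 h after injection, 5 days after depilation, at 61 days of age. The labels name 3 mice without saying whether that is per group. The design text states that RNA was pooled within each group, while the extraction protocol states separate extraction. The title of the PBS sample says telogen (the hair cycle's rest), but its source name and hair cycle entry give anagen. With 1 array per group the spread between mice cannot be measured, no p-value can be given, and precision is limited by having 2 arrays. Both arrays lay on 1 slide and in 1 scan, and 0 spots were saturated. Of 43379 probe spots, 62.4% were well above background in FGF18 skin and 61.5% in PBS skin.

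Macrophages answer to the signals around them by changing what they do with arginine and with citrate. Cells exposed to interferon gamma or bacterial products classically make inducible nitric oxide synthase (Nos2), which turns arginine into nitric oxide, and Acod1, which turns cis-aconitate into itaconate, a metabolite that inhibits succinate dehydrogenase. Cells exposed to interleukin 4 or 13 classically make arginase 1 (Arg1), which splits arginine into urea and ornithine, together with the secreted proteins Retnla (also called FIZZ1) and Chil3 (Ym1) and the lectin receptors Mrc1 (CD206) and Mgl2. Cd163, a receptor for haptoglobin-haemoglobin, and Folr2, a folate receptor, mark macrophages that reside in tissues.

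Of the 10 genes, 8 were measured on both arrays, Acod1 only in FGF18 skin and Nos2 on neither. Acod1 was at least 17.5-fold higher in FGF18 skin. Arg1 was 2.57-fold and Retnla 2.21-fold lower there, and Mrc1 was 1.63-fold lower (but slightly above 0, at 0.07 on the log2 scale, when arrays were scaled to spike-in transcripts). Folr2, Cd163, Chil3, Mgl2 and Arg2 differed by less than 1.5-fold. A lower signal in whole skin can come from fewer cells of a type or from less RNA per cell, and these cannot be told apart here. These folds are ratios of processed signals (background-subtracted brightness in scanner units) after each array was divided by its 75th percentile, which was 1020 in FGF18 skin and 899 in PBS skin. A log2 ratio is FGF18 minus PBS. Of the 8 genes, 2 were thus at least 2-fold lower and 0 at least 2-fold higher. Among 16610 genes with signal in both skins, 0.987% were lower by 2-fold or more, 1.54% were higher by as much, and 2.53% passed in either direction; since the same contrast chose the members, nothing is read from their share. The median log2 ratio of the 8 genes was -0.43, against -0.07 for all genes. All 8 ratios were below 0, as were 62.5% of all genes, and 7 were below the all-gene median.

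**Figure D1:**
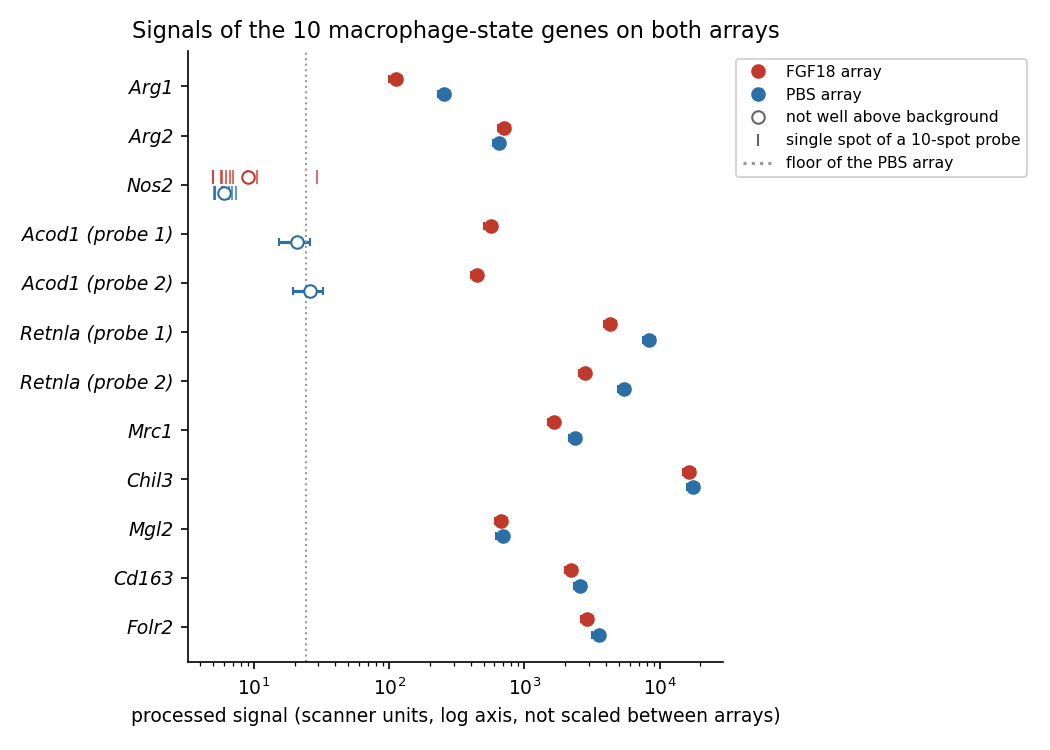
Processed signal of every probe of the 10 genes (scanner units, log axis, before scaling) in FGF18 skin (red) and PBS skin (blue), with bars for the scanner software's error of a spot; open circles are means or spots not well above background. Acod1 stands at 445 and 562 in FGF18 skin and near the dotted floor in PBS skin. The Nos2 means lie below the floor on both, while 1 of its single spots (ticks), at 29.5 in FGF18 skin, lies above it.

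Acod1, the itaconate-forming enzyme, was seen by 2 probes. Its processed signal was 562 ± 56.4 in FGF18 skin and 20.7 ± 5.39 in PBS skin for one probe, and 445 ± 44.9 and 26.1 ± 6.47 for the other, where the error is the scanner software's own for a spot. Both spots were well above background in FGF18 skin and neither was in PBS skin, so the fold is a lower bound, although the software called both PBS spots significantly above background by its less strict test. It was set against the higher of the spot's own PBS signal and 24.2, which was the smallest signal of any probe well above background in PBS skin, and came to at least 20.5-fold and at least 15.0-fold. The array annotation places the probes on chromosome 14 with starts 20 bases apart, so they overlap and read nearly the same stretch of the transcript. Among 610 genes measured in FGF18 skin only, 0.492%, that is 3 genes with Acod1 among them, had a bound as high. Genes measured in FGF18 skin only with a bound of at least 2-fold made up 0.721% of the 17625 genes measured on at least 1 array.

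Nos2, the inducible nitric oxide synthase, was printed as 10 spots of 1 probe. In FGF18 skin its spots ran from 4.95 to 29.5 with a median of 6.46, and in PBS skin from 5.10 to 7.38 with a median of 5.90. A single spot in FGF18 skin, the one at 29.5, was well above background, against 0 of 10 in PBS skin, and the other 9 FGF18 spots reached 10.5 at most. The scanner software called 3 of the 10 spots significantly above background in FGF18 skin and 0 of 10 in PBS skin. The 153 negative control spots had a median of 5.74 and a highest signal of 55.7 in FGF18 skin, and a median of 6.03 and a highest signal of 43.7 in PBS skin. Nos2 was not measured by the rule used here, and no fold is given. Both Acod1 probes in FGF18 skin were above the highest negative control, whereas some dim genes named below as measured in FGF18 skin only (Chil4 and Spi1) were under it. Transcripts below this level were not detectable here, which does not show that they were absent.

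Retnla, a small cysteine-rich protein secreted by alternatively activated macrophages, was read by 2 probes whose starts lie 10 bases apart on chromosome 16. The processed signals were 4300 ± 430 in FGF18 skin and 8340 ± 834 in PBS skin for one, and 2790 ± 279 and 5440 ± 544 for the other. Both were lower in FGF18 skin, by 2.20-fold and 2.21-fold after scaling. Before scaling the folds were 1.94 and 1.95, so whether Retnla passed 2-fold rested on the scaling. Chil3, a chitinase-like protein often reported beside Retnla, had 16600 ± 1660 in FGF18 skin and 17700 ± 1770 in PBS skin, a log2 ratio of -0.27 ± 0.20. The mouse genome holds a close copy of Chil3, Chil4, whose transcripts could also bind this probe. The probe for Chil4 itself had 43.5 in FGF18 skin and 7.12 in PBS skin, where it was not well above background.

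The promoter windows of Acod1, Retnla and Chil3 are shown because these genes span the range seen here: far higher, lower and nearly level in FGF18 skin. They are RefSeq windows of GRCm38.p6, from 250 bases before to 50 after the annotated start, 5′ to 3′ on the strand of the gene, and 7 of the 10 genes had one. Capitals mark matches to a motif, searched on both strands: a pair of GAAA separated by any 2 bases (the element of interferon regulatory factors), TTC and GAA separated by any 4 bases (the STAT6 element), TTGCNNAA of C/EBP factors, TGANTCA of AP-1, TATAAA of the TATA box and the kappa-B consensus of NF-kappa-B.
Acod1, chr14:103046762-103047061, plus strand: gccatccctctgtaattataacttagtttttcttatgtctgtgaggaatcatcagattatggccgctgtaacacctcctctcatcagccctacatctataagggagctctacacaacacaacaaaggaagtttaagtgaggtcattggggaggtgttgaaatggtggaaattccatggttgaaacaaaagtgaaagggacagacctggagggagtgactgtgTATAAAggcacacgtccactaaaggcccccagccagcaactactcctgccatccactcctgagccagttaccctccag
Retnla, chr16:48842359-48842658, plus strand: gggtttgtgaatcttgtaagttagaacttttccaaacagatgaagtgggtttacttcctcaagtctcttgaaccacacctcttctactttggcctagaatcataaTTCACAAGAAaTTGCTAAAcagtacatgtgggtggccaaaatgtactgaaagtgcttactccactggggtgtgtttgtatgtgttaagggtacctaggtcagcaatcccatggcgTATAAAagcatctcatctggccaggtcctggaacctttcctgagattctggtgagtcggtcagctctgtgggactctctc
Chil3, chr3:106167515-106167814, minus strand: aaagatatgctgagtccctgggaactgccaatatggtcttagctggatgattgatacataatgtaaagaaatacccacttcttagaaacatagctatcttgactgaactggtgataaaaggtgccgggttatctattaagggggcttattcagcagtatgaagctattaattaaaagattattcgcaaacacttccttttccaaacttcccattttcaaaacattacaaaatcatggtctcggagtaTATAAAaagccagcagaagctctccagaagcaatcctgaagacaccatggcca
The Acod1 window held a TATAAA, from -28 to -23 relative to the annotated start, and no other motif of the search. The Retnla window held a STAT6 element from -145 to -136, a TTGCNNAA from -134 to -127 and a TATAAA from -30 to -25. The Chil3 window held a TATAAA across the annotated start, from -3 to 3, and no other motif of the search. Among the other 4 genes with a window, Folr2 held a TGANTCA from -74 to -68 in 1 of its 2 windows, and Cd163, Mgl2 and Mrc1 held no match. No match overlapped another. Of 32851 mouse promoter windows of this length, 3.44% held the interferon regulatory factor element, 6.95% the STAT6 element, 10.8% TTGCNNAA, 7.81% TGANTCA, 13.6% TATAAA and 4.51% the kappa-B consensus. These are matches of letters in a short window and show neither binding nor its absence.

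Arg1, the cytosolic enzyme, had 112 ± 12.4 in FGF18 skin and 254 ± 26.0 in PBS skin, both well above background, for a log2 ratio of -1.36 ± 0.22. Arg2, the mitochondrial enzyme made by many cell types, had 707 ± 70.8 in FGF18 skin and 647 ± 64.9 in PBS skin, for a log2 ratio of -0.05 ± 0.20. Arg1 was thus lower in FGF18 skin by more than the error of its spots, and Arg2 lay within it. Of all genes measured on both arrays, 0.355% had a lower ratio than Arg1 and 0.626% a lower one than Retnla. The same contrast chose the members, so nothing is read from these ranks. The error is the scanner software's estimate for a spot alone and does not cover the spread between mice. It was 0.204 on the log2 scale for Chil3, Folr2 and both Retnla probes alike, each read from 1 spot. In 62 probes printed as 8 or more spots with signals of 100 to 1000, the median SD of log2 ratios between spots was 0.070, and in 95 brighter probes 0.032. Suprabasal keratinocytes of skin can also make Arg1. Their 11 markers were all measured on both arrays, with a median log2 ratio of -0.63. The summed signal of these markers before scaling was 317494 in FGF18 skin and 411056 in PBS skin. Ivl, Flg and Casp14, genes of the cornified layer, were 2.01-, 2.21- and 2.26-fold lower and 0 markers were at least 2-fold higher. Without scaling 0 markers were at least 2-fold lower, so whether Ivl, Flg and Casp14 passed 2-fold rested on the scaling. The part of suprabasal keratinocytes in the lower Arg1 signal was not tested.

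The receptors were lower in FGF18 skin by smaller amounts, which turned to values above 0 under spike-in scaling. Mrc1, the mannose receptor that takes up glycoproteins, had 1650 ± 165 in FGF18 skin and 2370 ± 238 in PBS skin, for a log2 ratio of -0.70 ± 0.20. Folr2 had 2900 ± 290 in FGF18 skin and 3530 ± 353 in PBS skin (log2 ratio -0.47 ± 0.20). Cd163 had 2220 ± 222 in FGF18 skin and 2590 ± 260 in PBS skin (log2 ratio -0.40 ± 0.20). Mgl2, a galactose-type lectin of macrophages and dermal dendritic cells, had 674 ± 67.7 in FGF18 skin and 691 ± 69.3 in PBS skin (log2 ratio -0.22 ± 0.20). Less the all-gene median of -0.07, the log2 ratio was -0.63 for Mrc1, -0.39 for Folr2, -0.33 for Cd163, -0.20 for Chil3 and -0.15 for Mgl2. Those of Chil3 and Mgl2 lie within the software's error of a spot pair, which is wider than the median SD between repeated spots given above.

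**Figure D2:**
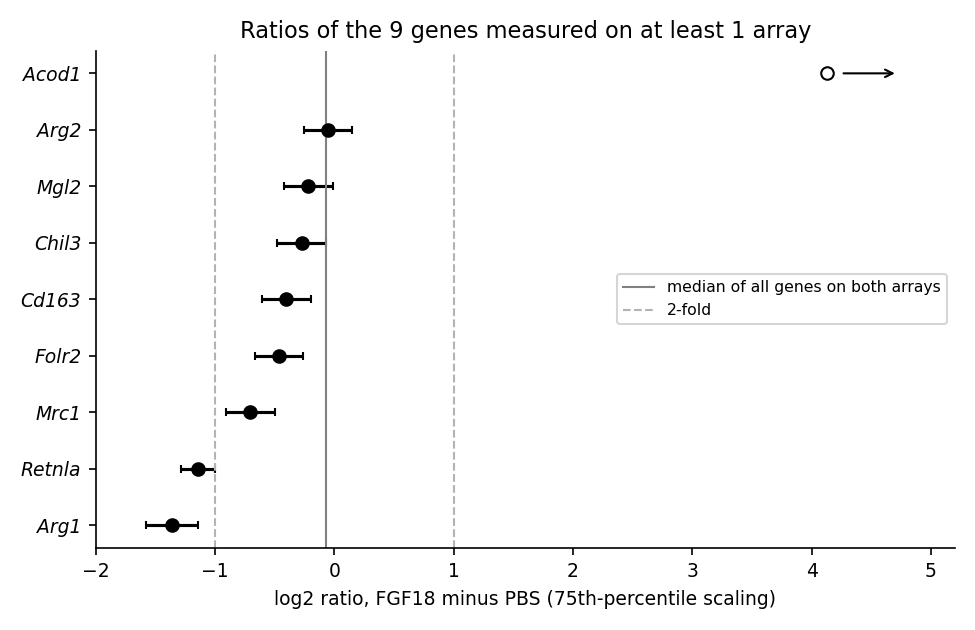
Log2 ratio, FGF18 minus PBS, of the 9 genes measured on at least 1 array, with bars for the scanner software's error; Acod1 is a lower bound (arrow), the solid line is the median of all genes (-0.07) and dashed lines mark 2-fold. Arg1 and Retnla lie beyond the lower 2-fold line, and Arg2 lies on the line of all genes.

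The 8 genes stood in the same order in 10 of 12 processing settings, the main one among them. Most alternatives shift every ratio by the same step or leave these ratios as they were, so they could not change the order. Loess, quantile normalization and normexp act on genes unequally, and of these only loess kept the order. With normexp background correction Arg1 had a ratio of -1.01, a move larger than its spot error of 0.22, and Retnla was lower than Arg1, and with quantile normalization Mgl2 was lower than Chil3. Less the median of all genes in each setting, Arg1 ranged from -1.30 to -0.92, Retnla from -1.08 to -0.96 and Mrc1 from -0.66 to -0.53 over 12 settings. Folr2 ranged from -0.41 to -0.29, Cd163 from -0.36 to -0.23, Chil3 from -0.21 to -0.10, Mgl2 from -0.18 to -0.04 and Arg2 from -0.02 to 0.12. The ratios themselves moved with the scaling. Without scaling the median of all genes was 0.11, and with scaling to the spike-in transcripts it was 0.71. Under the spike-in scaling Mrc1, Folr2, Cd163, Chil3, Mgl2 and Arg2 had ratios above 0, from 0.07 to 0.72, while Arg1 (-0.59) and Retnla (-0.36) were still below 0 but under 2-fold.

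**Figure D3:**
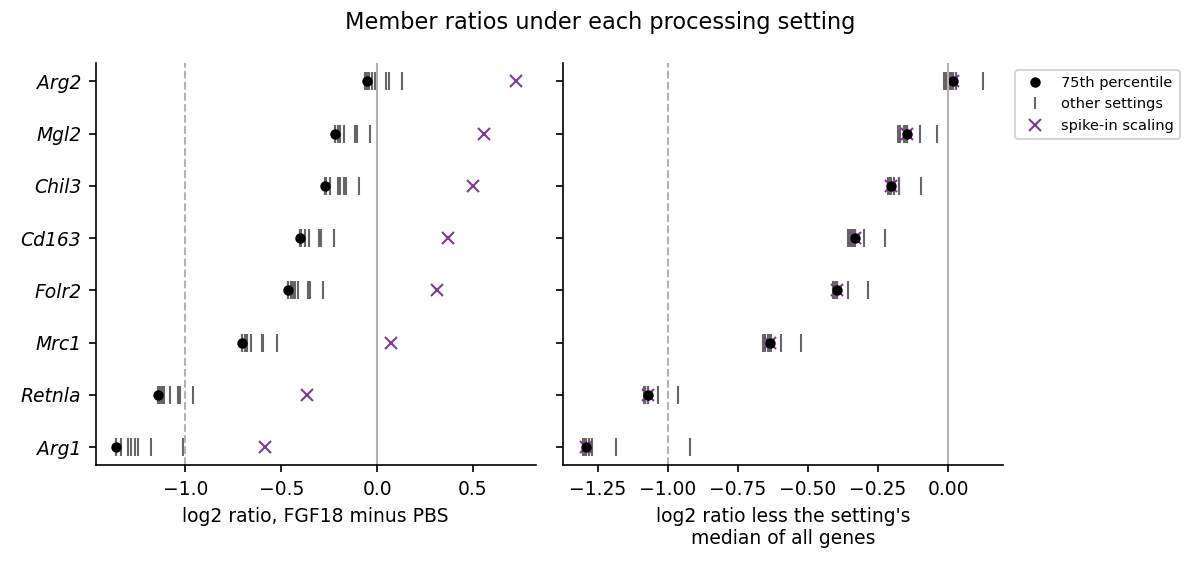
Log2 ratio, FGF18 minus PBS, of the 8 genes measured on both arrays under the 75th-percentile scaling (dots), 10 other settings (ticks) and spike-in scaling (crosses), as computed (left) and less the median of all genes in that setting (right). Spike-in scaling moves all genes to the right by the same step, and the right panel shows each gene's range against all genes, widest for Arg1 (-1.30 to -0.92).

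Of 18 family relatives, 13 were measured on both arrays and 0 passed 2-fold, with a median log2 ratio of -0.03. Of the other nitric oxide synthases, Nos1, the neuronal form, had 1980 on each array (log2 ratio -0.18), and Nos3, the endothelial form, had 479 in FGF18 skin and 296 in PBS skin (1.43-fold higher). Resistin (Retn), the adipocyte relative of Retnla, had 6391 in FGF18 skin and 4406 in PBS skin (1.28-fold higher), opposite in direction to Retnla. Retnlb and Retnlg were not well above background on either array. Adipose tissue is a known source of Retnla, and the 8 adipocyte markers, Retn among them and all measured on both arrays, had log2 ratios from -0.12 to 0.35. The part of adipocytes in the Retnla signal was not tested. Chil1 was 1.35-fold lower and Chit1, a chitinase of macrophages, 1.35-fold higher in FGF18 skin. Clec10a, the close paralog of Mgl2, had 14600 in FGF18 skin and 13500 in PBS skin (log2 ratio -0.07). Among the relatives of Mrc1, Mrc2, Ly75 and Pla2r1 lay between -0.25 and 0.03, and Folr1 was at -0.20.

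Genes that supply or use arginine showed no member past 2-fold. All 15 of the arginine list were measured on both arrays, with a median of 0.04. Odc1, which turns the ornithine made by arginase into polyamine precursor, had 6975 in FGF18 skin and 4747 in PBS skin (1.30-fold higher), and Oat, which also uses ornithine, was 1.10-fold higher. Slc7a2, an arginine importer of activated macrophages, had 89.5 in FGF18 skin and 48.5 in PBS skin (1.63-fold higher), and Ass1, which rebuilds arginine from citrulline, had 1133 and 695 (1.44-fold higher). Both were named after their values were seen. The list of 5 genes of tetrahydrobiopterin, the cofactor of every nitric oxide synthase, also had 0 past 2-fold. Gch1, which makes the cofactor's precursor and was named after its values were seen, had 343 in FGF18 skin and 172 in PBS skin (1.76-fold higher). Its 2 probes were at 0.58 and 1.04 on the log2 scale. Spr, the last enzyme of that route, had 2070 in FGF18 skin and 1110 in PBS skin (1.64-fold higher), while Gchfr, which restrains Gch1, had 1390 and 1740 (1.42-fold lower). These differences stood beside a Nos2 probe that was not measured on either array by the rule used here. Of its 10 spots, 1 was well above background in FGF18 skin and 0 in PBS skin.

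**Figure D4:**
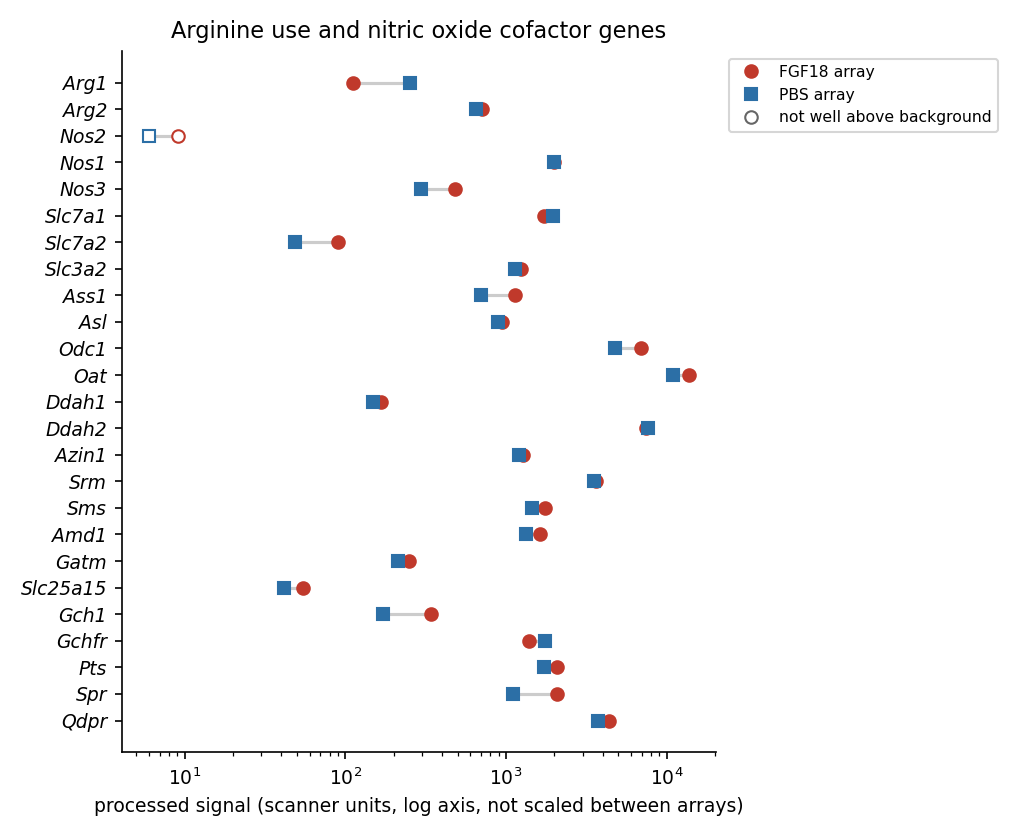
Processed signal (scanner units, log axis, before scaling) in FGF18 skin (red circles) and PBS skin (blue squares) for arginases, nitric oxide synthases, arginine-handling genes and tetrahydrobiopterin genes; open symbols are not well above background. Arg1 is lower and Slc7a2, Gch1 and Spr are higher in FGF18 skin, while Nos2 lies near 10 or below on both.

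In a list of 19 genes of the substrate, target and response of Acod1, each with signal in both skins, 1 was higher by 2-fold or more and 0 lower, with a median of -0.02. That gene was Atf3, a stress transcription factor linked to itaconate, with 1540 in FGF18 skin and 673 in PBS skin (2.02-fold higher). The 4 succinate dehydrogenase subunits lay between -0.14 and 0.31. The NRF2 targets Hmox1, Nqo1, Gclm, Gclc, Txnrd1 and Srxn1 were at -0.51, -0.20, -0.02, -0.20, -0.11 and 0.30. Slc25a1, the mitochondrial citrate carrier, was 1.66-fold higher. Slc25a1, the NRF2 targets other than Txnrd1, and the succinate dehydrogenase genes other than Sdhd were named after their values were seen.

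Lists of other genes of classical and alternative activation were described apart, and the difference between them was not tested. Of the classical list, 19 of 27 genes had signal in both skins, 5 were higher by 2-fold or more and 0 lower in FGF18 skin, and the median was 0.53. Among those 5 were the chemokine genes Cxcl10 (7.56-fold), Ccl5 (6.52-fold) and Cxcl9 (4.54-fold) and the transcription factor gene Irf5 (2.03-fold). The cytokines Il6, Il12b and Il23a were not well above background on either array, Il1b was at -0.27 and Tnf at 0.27; these were named after their values were seen. Fpr2, a formyl peptide receptor, had 148 in FGF18 skin and 25.3 in PBS skin, where it was not well above background (at least 5.16-fold higher). Of the alternative list, 19 of 25 genes were measured on both arrays, 0 passed 2-fold in either direction and the median was -0.07, as it was for all genes. Among its members Ccl24, a chemokine for eosinophils, had 277 in FGF18 skin and 401 in PBS skin (1.64-fold lower), and Il4ra, the receptor for interleukins 4 and 13, was at 0.17. Ccl24 and Il4ra were named after their values were seen.

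Macrophage lineage markers were uneven, and these values stand beside every result above. All 20 had a probe, 19 were measured on both arrays, and their summed signal before scaling was 106915 in FGF18 skin and 69274 in PBS skin. Among the 19, 5 were higher by 2-fold or more and 0 lower, with a median of 0.31. The 5 were Fcgr1, the high-affinity IgG receptor (6.57-fold), Siglec1 (3.56-fold), Aif1 (3.05-fold), the scavenger receptor gene Msr1 (2.93-fold, with 3 probes between 0.68 and 2.04 on the log2 scale) and Mpeg1 (2.08-fold). Adgre1, which encodes the macrophage antigen F4/80, was at 0.14, and the complement genes C1qa, C1qb and C1qc lay between -0.22 and -0.17. Lyz1 and Lyz2, whose transcripts are alike enough to share probes, were at -0.40 and -0.45. Adgre1, the C1q genes and Spi1 were named after their values were seen. Spi1 was measured in FGF18 skin only, at a signal of 26.0.

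Markers of resident macrophages had a median log2 ratio of -0.41, near the -0.43 of the 8 genes, with 0 of 15 past 2-fold. A low median was not particular to them, with -0.63 for suprabasal keratinocyte and -0.30 for neutrophil markers. The summed signal of the resident macrophage markers before scaling was 148080 in FGF18 skin and 156853 in PBS skin. F13a1 had 4040 in FGF18 skin and 5860 in PBS skin (1.65-fold lower), Hpgd 1492 and 2089 (1.59-fold lower), Pf4 5030 and 6850 (1.54-fold lower) and Cd209f 972 and 1304 (1.52-fold lower), all named after their values were seen. Selenop was at -0.41, Cbr2 at -0.24, Gas6 at -0.05 and Ccl8 at 0.02. Timd4, at dim signals of 125 and 74.0, was at 0.57, and was named after its values were seen. Monocyte markers were higher in more cases, with 3 of the 7 measured on both arrays at least 2-fold higher, 0 lower, a median of 0.66 and a summed signal of 59092 in FGF18 skin and 20845 in PBS skin. Plac8 was 4.48-fold, Ly6i 2.85-fold and Ly6c1 2.14-fold higher. Fcnb was not well above background on either array. Ly6c1 is also made by endothelial cells. The part of these cell types in the 10 genes' values was not tested.

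**Figure D5:**
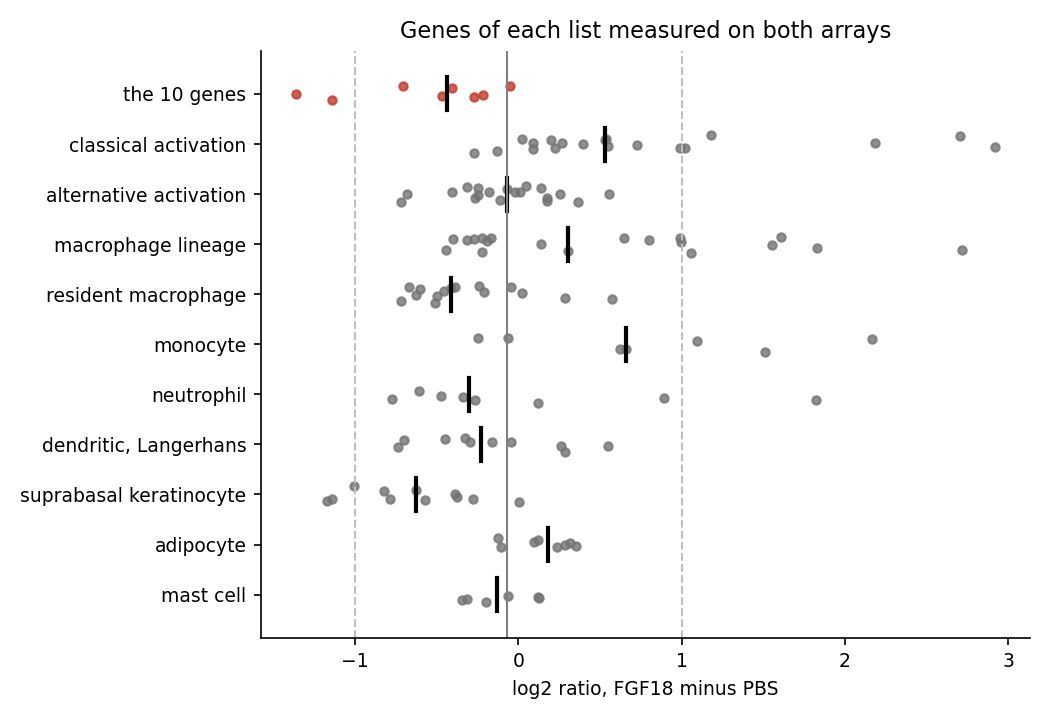
Log2 ratio, FGF18 minus PBS, of each gene measured on both arrays, by gene list, with a black bar at the median of each list, a solid line at the median of all genes (-0.07) and dashed lines at 2-fold. The 10 genes (red, 8 measured) have a median of -0.43, near resident macrophage markers (-0.41) and below classical activation genes (0.53) and monocyte markers (0.66). Neutrophil (-0.30), dendritic (-0.23) and mast cell markers (-0.13) also lie below the line of all genes, and suprabasal keratinocyte markers (-0.63) lie lowest.

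Neutrophils can also carry chitinase-like transcripts, and eosinophils accompany type 2 responses. Of 12 neutrophil markers with a probe, 8 were measured on both arrays, with a median of -0.30. The summed signal of the 12 before scaling was 3879 in FGF18 skin and 3231 in PBS skin. S100a8 was 3.53-fold higher while S100a9 was at -0.34. The granule genes Ltf, Ngp and Elane were not well above background on either array. Other granule genes were measured on both, Mpo at 0.12, Camp at -0.47 and Mmp9 at -0.27. Csf3r was at 0.89. Of the 8 measured markers, 3 lay above the all-gene median and 5 below. Camp, Mmp9 and Csf3r were named after their values were seen. Of 7 eosinophil markers with a probe, Epx, Prg2, Prg3, Siglecf and Il5ra were not well above background on either array. Ear1, of a family of near-identical ribonuclease genes, had 201 in FGF18 skin and 377 in PBS skin (2.13-fold lower, and under 2-fold without scaling). Ccr3, the only other marker measured on both arrays, went the other way, at dim signals of 47.9 in FGF18 skin and 32.7 in PBS skin (1.29-fold higher).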

How the data were processed

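Gene expression was measured on 2 single-colour arrays, 1 per group. Per the file headers, images of design 014868 were read with Feature Extraction 9.5.3.1 (protocol GE1-v5_95_Feb07). The deposited intensity values are a mean spot signal, a local background and a processed signal that is background-subtracted and detrended, per the file headers, with an error for each spot and a p-value for a spot against background. Flags, spot types and spot numbers are other deposited columns, per the file headers. The deposited series value table holds a ratio. Compared with scanner values, a column is the processed signal over that array's median (83.8 for FGF18, 80.0 for PBS), linear, in the same direction, within 0.0078 on the log2 scale, with column medians of 1.00 and 0.999. Any other scaling by the authors: not given in the sources used here. No column of sample values was left unmapped.

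Log2 processed signals less each array's 75th percentile were compared. Spots that were controls or outliers were left out. Means were taken over spots of a probe and then over probes of a gene. Summed signals were taken before scaling over all genes of a list with a probe, so the brightest genes weigh most in them. A probe was called measured if at least 0.5 of its spots were well above background. The lowest such signal was 23.3 in FGF18 skin and 24.2 in PBS skin. Names came from the files or a RefSeq table of GRCm38.p6 (23360 probes by accession, 6738 by symbol, 2906 by synonym; 8161 kept the file's name). No test was made with 1 array per group. The text names all 10 genes, their relatives, and of other lists the genes past 2-fold, the brightest and the markers at background; others are said to be named after their values were seen. Members and lists were chosen with earlier results of these data known. Alternatives covered scaling, background correction (normexp in limma 3.58.1, offset 50), the value table, filters, probes and thresholds. Some results on single genes and on 1 motif are not reported here. Scripts ran in Python 3.11.15 and R 4.3.3 and were tested on simulated data.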

Additional observations from a re-analysis of the deposited data

How the results depend on the processing

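With 2 genes of the 8 at least 2-fold different, both lower, the count became 1 (Arg1) without scaling, 0 with spike-in scaling and 0 at a threshold of 3; in the other alternatives it was 2 or 3. Over the context lists together, 20 genes passed 2-fold (16 higher, 4 lower); this became 58 (all higher) with spike-in scaling, 46 at a threshold of 1.5 and 8 at 3. Without scaling 20 were higher and 0 lower, and with median scaling 19 and 2. Of all genes, 420 passed (256 higher, 164 lower): 2310 with spike-in scaling (2282 and 28), 235 with normexp, 1687 without a filter on dim probes, 251 with signals over 100, 701 with genes of 1 array at their bound, 1430 at a threshold of 1.5 and 160 at 3. Without scaling 336 were higher and 92 lower, with median scaling 291 and 114, and 296 and 111 with the authors' deposited values. Of 88 recomputed ratios of the 8 genes, 78 moved by less than the spot error, 10 by more, and 0 of those past 2-fold changed sign. Those 78 include ratios that could not move. The 2 changes of filter left all 8 ratios as they were, and taking the brightest probe could change Retnla alone. The count is therefore no measure of stability. Without a filter Acod1 had a ratio of 4.25. The amount of spike-in RNA is not given in the files or labels, and the cause of that shift was not tested. Signals near background limit Nos2 and the PBS value of Acod1. No paired analysis was possible because each group has 1 array. No replicate could be left out for the same reason.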

Other observations

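Of 18 cytokines and receptor chains that steer macrophages, 14 had signal in both skins, 1 was higher by 2-fold or more and 0 lower, with a median of 0.08. The one was Il10ra, a receptor chain for interleukin 10, with 1640 in FGF18 skin and 719 in PBS skin (2.01-fold higher). Ifng, the gene of interferon gamma, had a mean of 65.1 in FGF18 skin and 17.0 in PBS skin, where it was not well above background, for a bound of at least 2.37-fold. Il4 was not well above background on either array, and Il13 was so only in FGF18 skin, at 34.5 against 19.7 (at least 1.26-fold), below the highest negative control spot of that array (55.7). The interferon gamma receptor genes Ifngr1 and Ifngr2 were at -0.07 and -0.19, and Il33, Csf1 and Il34, which act on type 2 cells and macrophage survival, were at 0.11, 0.22 and -0.22. Il13, Il33, Csf1 and Ifngr2 were named after their values were seen.

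Dendritic and Langerhans cell markers had a median of -0.23 over 10 genes, with 0 past 2-fold. Among the 10, Cd207, the langerin of Langerhans cells, had 2040 in FGF18 skin and 3000 in PBS skin (1.67-fold lower). Mgl2 was 1.16-fold lower, and Cd209a, a lectin of dermal dendritic cells that often go with Mgl2, had 75.3 in FGF18 skin and 108 in PBS skin (1.63-fold lower). Cd207 and Cd209a had the lowest ratios of the 10 markers. Of the 10, 6 lay below the all-gene median and 4 above it: Ccr7 at 0.55, Zbtb46 at 0.28, Flt3 at 0.26 and Clec9a at -0.05. Cd209a and these 4 were named after their values were seen. Mast cell markers had a median of -0.13 over 6 genes, with 0 past 2-fold, and Mcpt4 was at -0.20.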
